A study of Rattus norvegicus with 24 samples.

Results

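Mef2a, Mef2c and Mef2d, which encode MEF2 transcription factors, and Hdac4, Hdac5 and Hdac9, which encode class IIa histone deacetylases, were followed through 30 days of resistance training in the rat. They were chosen by gene symbol, as 6 of the 15273 symbols in the deposited transcript table, and were read both per transcript (14 of 20027) and as the sum of the transcripts of each gene. RNA of the tibialis anterior, the dorsiflexor at the front of the lower leg, was sequenced from male Wistar rats in which an implanted pulse generator stimulated the left hindlimb every day. The left muscle was the trained one, and the right muscle of the same animal, which was not stimulated, was its contralateral control. Muscles were taken after 2, 10, 20 or 30 days of training, with 3 trained and 3 contralateral muscles on each day, so that 24 muscles came from 12 animals. The study took them an hour after the last daily session. The acute response to that session and the effect of the training before it therefore cannot be told apart here. The 12 contralateral muscles of the 4 days served together as control for every trained group, so the 4 comparisons of trained with control share them.

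MEF2 proteins are MADS-box factors that bind AT-rich elements in front of muscle genes and switch on contractile, metabolic and activity-dependent genes. Class IIa deacetylases bind to MEF2 in the nucleus and hold its target genes down. When calcium-dependent and other kinases phosphorylate these deacetylases, 14-3-3 proteins carry them out of the nucleus, and MEF2 is then free to recruit coactivators. Much of this control acts on proteins already present, which a transcript measurement does not see.

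Every value below is a TPM-type value, that is, scaled for transcript length and to the same total in each sample, and then divided by 1 factor per sample (0.778 to 1.14). Both properties are read from the values, since the study describes a median-of-ratios normalization, which does not give equal totals. In each muscle 1 product of value and length, rounded to 1 decimal, recurred among pseudogene transcripts of 11 to 31 distinct lengths, whereas no single value, rounded to 3 decimals, recurred at more than 4. This product made 1 counted fragment on a transcript of 1000 bases worth 0.0981 to 0.172 before rescaling, and the total depth of a muscle was not recovered. All 6 genes passed the filter on low values (at least 1 in at least 3 muscles), as did 11196 of the 15273 symbols, and 10 of the 14 transcripts did so. The muscles expressed the markers of skeletal muscle fibres: the summed value of 6 of them ranged from 45649 to 57256 in control muscles. In trained muscles it was 49237 to 51962 at 2 days and 53189 to 72640 at 10 days. It was 40459 to 67206 at 20 days and 45804 to 54045 at 30 days. The 30-day trained muscles stood apart in the share of the table taken by mitochondrial transcripts, at 40.4% to 44.6%, as did control muscle 1 of 30 days at 44.2%.

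The MEF2 element itself could be looked up in RefSeq promoters (assembly GRCr8, 250 bases before to 50 after the start of each gene) for 5 of the 6 genes, Mef2a, Mef2d, Hdac4, Hdac5 and Hdac9. The MEF2 consensus, searched on both strands, was found in 2 of these, Mef2a and Hdac5, and in 3.29% of all 33469 promoters. The windows are shown because they place a MEF2 element in front of a MEF2 gene and in front of a deacetylase that binds MEF2. Capitals mark the 10 bases of the match, all runs are given 5′ to 3′ on the strand of the gene, and the windows of Xirp2 and Klhl40, a pair of known MEF2 targets described further on, are set beside them. A match describes these letters and is not evidence of binding.
Mef2a (chr1:130392178-130392217, minus strand, match from -40 of the start site): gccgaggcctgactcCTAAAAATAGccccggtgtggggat
Hdac5 (chr10:87688082-87688121, minus strand, match from -52): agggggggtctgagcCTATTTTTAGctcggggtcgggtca
Xirp2 (chr3:72534097-72534136, plus strand, match from -74): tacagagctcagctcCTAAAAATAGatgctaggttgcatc
Klhl40 (chr8:130318749-130318788, plus strand, match from -29): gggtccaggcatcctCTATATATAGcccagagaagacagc
The promoters of Mef2d, Hdac4 and Hdac9 held no such letters in this window.

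Levels differed widely between the genes in unstimulated muscle. On the per-length scale, Mef2c averaged 111 ± 9.39 (SD, n = 12), which placed its mean over all muscles above 97.2% of gene symbols, whereas Mef2d averaged 23.7 ± 3.54, Mef2a 19.1 ± 3.63 and Hdac5 16.8 ± 1.98. Hdac4 averaged 2.55 ± 1.14 and Hdac9 1.09 ± 0.401. Mef2c was above Mef2d in 12 of 12 control muscles with no overlap of their ranges, Hdac5 was above Hdac4 in 12 of 12, also without overlap, and Hdac4 was above Hdac9 in 12 of 12 although their ranges overlapped. Mef2d was above Mef2a in 12 of 12 and Mef2a above Hdac5 in 10 of 12, but the ranges of these neighbours overlapped. Of the rest of the 2 families, Hdac7, another class IIa deacetylase, averaged 2.47, close to Hdac4, and Mef2b averaged 0.102 and was listed at 0 in 41.7% of control muscles. Mef2c thus made up 72.4% ± 2.34 of the summed value of Mef2a, Mef2c and Mef2d in control muscle, and Hdac5 82.6% ± 4.84 of that of Hdac4, Hdac5 and Hdac9.

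**Figure D1:**
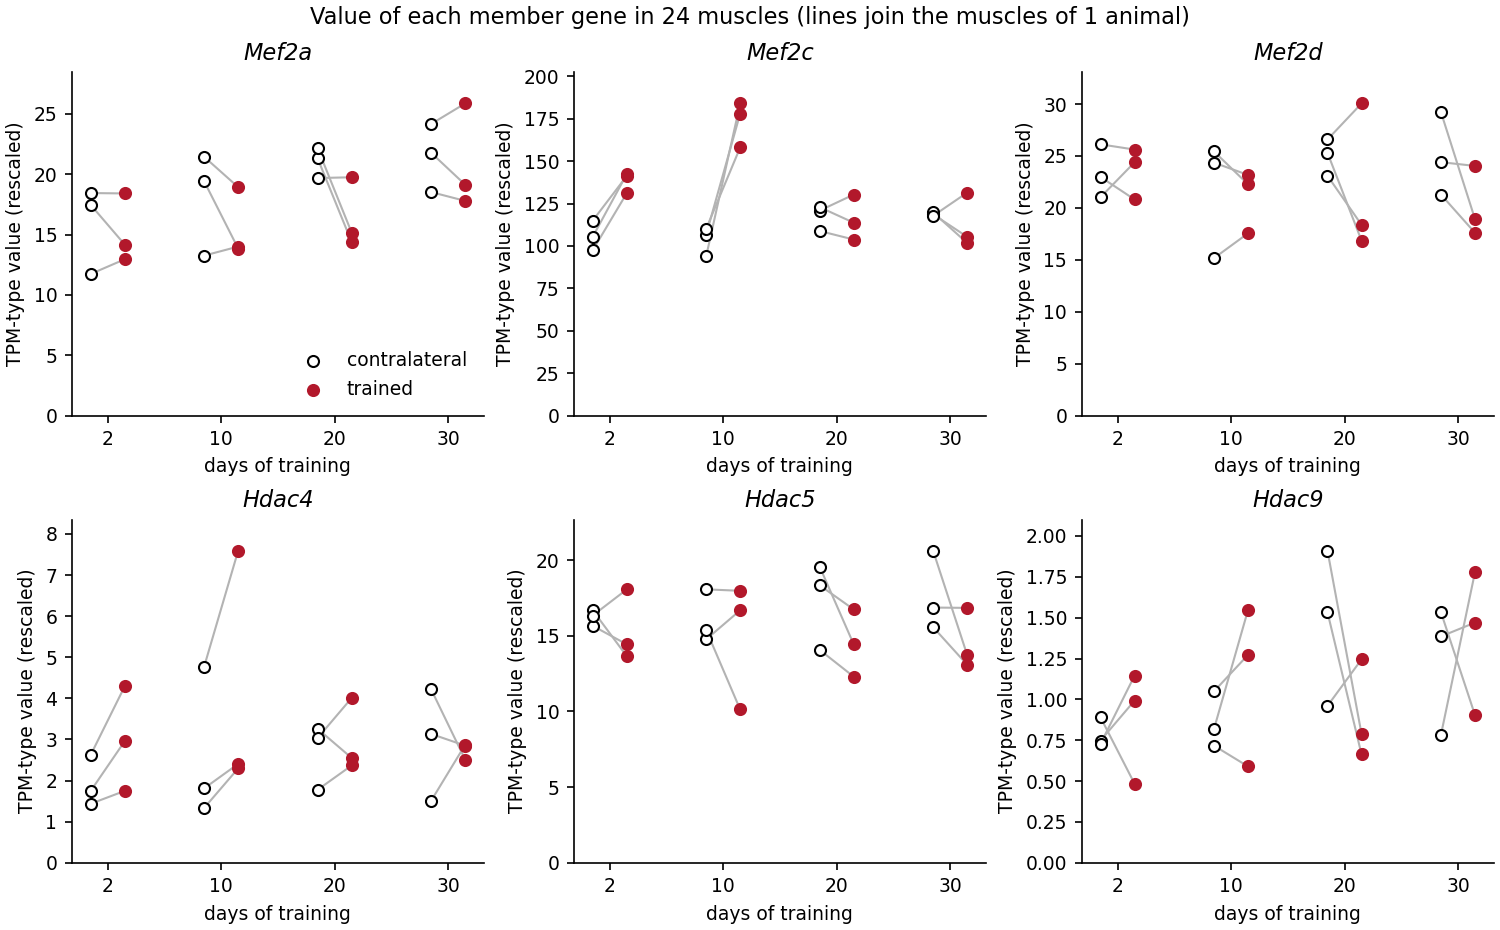
TPM-type value (y axis, from 0) of each gene in every muscle by days of training (x axis); open points are contralateral muscles, filled points trained muscles, and lines join the 2 muscles of an animal. Mef2c is higher in the trained muscle of all 3 animals at 2 and at 10 days, and the high Hdac4 value of 7.59 at 10 days is joined to the highest contralateral value, 4.77.

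Mef2c, the most abundant MEF2 gene, was the member whose transcript rose with training, and it did so early. Its value in the 12 control muscles had a lowest value of 93.8, a median of 112 and a highest value of 123. The trained muscles held 142, 131 and 141 at 2 days and 184, 178 and 158 at 10 days. All 6 of these trained muscles lay above every control muscle. Non-overlap upward of this kind was seen in 8.57% of genes tested at 2 days and in 10% at 10 days.

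The values at the later days lay back in the control range or near it. At 20 days Mef2c was 130, 114 and 104, and at 30 days 105, 102 and 131. On each of these days 1 of 3 trained muscles was above the highest control muscle and the other 2 were within the control range.

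In the limma fit over all genes, Mef2c rose 1.24-fold at 2 days (log2 fold change 0.31 ± 0.096, SE, Benjamini-Hochberg adjusted p = 0.0167) and 1.55-fold at 10 days (0.64 ± 0.096, limma adjusted p = 1.97e-05). At 20 and 30 days the log2 differences were 0.06 (95% confidence interval -0.14 to 0.25, limma adjusted p = 0.74) and 0.01 (-0.18 to 0.21, limma adjusted p = 0.939). Mef2c was thus 1 of 6 members called at 2 days and 1 of 6 at 10 days, where 28.9% of all genes tested were called on each day. In the limma fit 0 of the 6 were called at 20 days or at 30 days, where 21.4% and 20.6% of genes were, and at an unadjusted p under 0.05 the counts were 0 of 6 members on both days against 33% and 33.7% of genes. Without trained muscle 1 or trained muscle 3 of 2 days, the 2-day call was lost (log2 0.29, limma adjusted p = 0.0577, and 0.30, limma adjusted p = 0.078), whereas the 10-day call was kept without any single muscle of that day or any control.

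Compared within animals, Mef2c was higher in the trained muscle of every animal at 2 and 10 days. The ratio of the trained to the contralateral Mef2c value was 1.35, 1.35 and 1.23 in the animals of 2 days and 1.96, 1.67 and 1.44 in those of 10 days. It was 1.08, 0.926 and 0.954 at 20 days and 0.888, 0.85 and 1.12 at 30 days, so that 1 of 3 trained muscles was higher on each later day.

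The trained groups were also compared with each other, which asks whether the level in trained muscle differed between days. Mef2c differed among the 4 trained groups (limma F test, adjusted p = 0.0033, 1 of 6 members called against 12% of genes). Its trained value at 30 days was lower than at 10 days by a log2 difference of -0.62 (limma adjusted p = 0.00546, 3.94% of genes called), and at 20 days than at 10 days by -0.58 (limma adjusted p = 0.0463, 0.17% of genes called). The 3 trained muscles of 10 days lay above all 3 of 20 days and all 3 of 30 days, as they did in 6.81% and 12.3% of genes. The other 4 pairs of days were not called (1.93%, 8.05%, 15% and 0.0357% of genes were, for 10 against 2, 20 against 2, 30 against 2 and 30 against 20 days), with 10 days above 2 days by 0.32 (limma adjusted p = 0.189) and 30 days below 2 days by -0.30 (limma adjusted p = 0.0995). The last of these was called without trained muscle 3 of 30 days (-0.41, limma adjusted p = 0.0427), and with values as deposited (-0.63, limma adjusted p = 0.00328), where 29.2% of genes were called. With the animal as a block, which sets each trained muscle against its own contralateral muscle, the sizes were larger but the calls were lost: the difference between 30 and 10 days was -0.82 (limma adjusted p = 0.1) and that between 20 and 10 days -0.76 (limma adjusted p = 0.291), with 0.0804% and 0.00893% of genes called, and the limma F test gave adjusted p = 0.0579 (1.14% of genes called). The contralateral muscles of the 4 days did not differ detectably in Mef2c (limma F test, adjusted p = 0.771) or in any other member (adjusted p from 0.665), and 0.152% of genes were called.

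**Figure D2:**
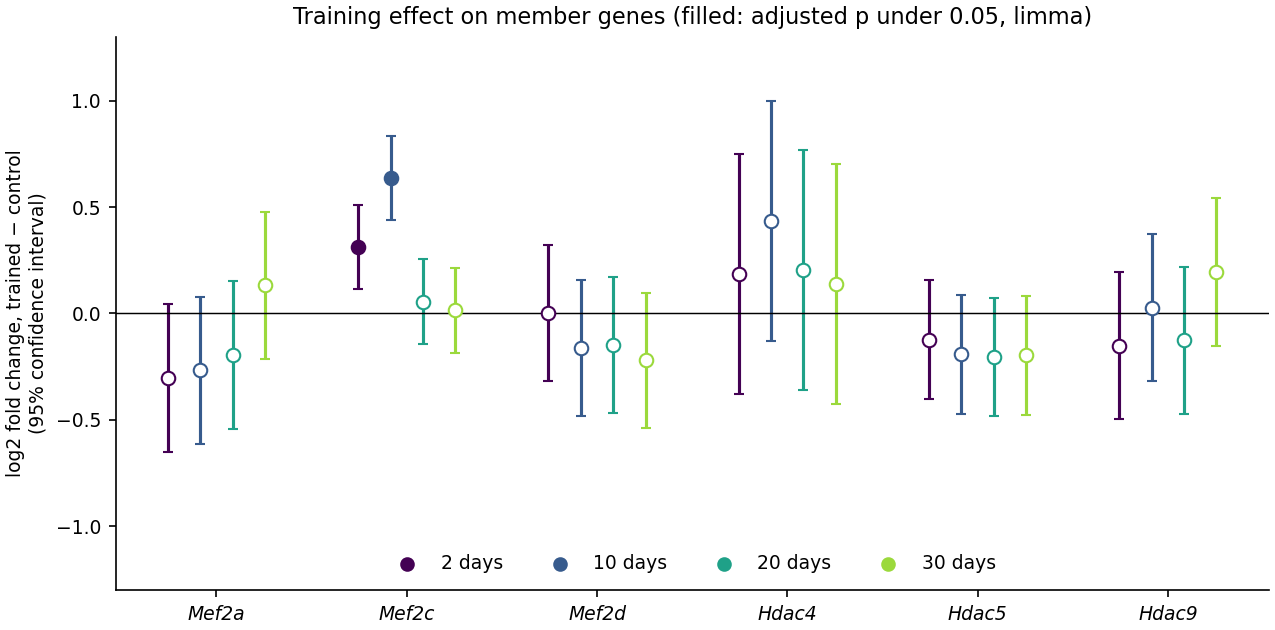
Log2 fold change of trained over control muscle (y axis) for each gene (x axis) at 2, 10, 20 and 30 days, in colours from dark to light; bars are 95% confidence intervals from limma and filled points have an adjusted p under 0.05. Mef2c at 2 and 10 days (0.31 and 0.64) are the 2 filled points, and the intervals of Hdac4 are the widest.

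Of the 7 Mef2c transcripts listed on chromosome 2 (Rnor_6.0, plus strand, all starting at 11658568), Mef2c-205, which ends at 11822788, carried 94% of the gene's value on average. It held 131, 122 and 134 in the trained muscles at 2 days and 172, 166 and 146 at 10 days, against 91.4 to 114 in the control muscles. Both trained groups lay above the whole control range, as did 7.36% of transcripts at 2 days and 8.54% at 10 days. In the fit over transcripts it rose by 0.30 at 2 days (limma adjusted p = 0.0215) and by 0.62 at 10 days (limma adjusted p = 3.33e-05). It was 1 of 10 member transcripts called at 2 days and 1 of 2 called at 10 days, against 22.9% and 22.8% of transcripts, and 0 of 10 were called by limma at 20 or at 30 days, against 16.6% and 16%. With the animal as a block the 2-day value was 0.37 and the call was lost (limma adjusted p = 0.0533, 15.3% of transcripts called). Between trained groups it was lower at 30 than at 10 days by -0.59 in the main fit (limma adjusted p = 0.0101, 2.03% of transcripts called).

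The other Mef2c transcripts were scarce. Mef2c-208 was 3.14, 4.41 and 2.51 in the trained muscles at 10 days, all above the highest control muscle at 2.17, and rose by 0.84 (limma adjusted p = 0.0021). Mef2c-204 was 8, 7.46 and 7.12 at 10 days, of which 2 lay above the highest control muscle at 7.22, with a log2 difference of 0.69 (limma adjusted p = 0.0617). The call was gained when any 1 of 3 control muscles was left out, namely muscle 1 of 10 days (0.56, limma adjusted p = 0.0262), which held only 1.04, muscle 3 of 10 days (0.73, limma adjusted p = 0.0475) or muscle 2 of 20 days (0.74, limma adjusted p = 0.0377). At 20 and 30 days Mef2c-204 had a mean of 3.38 and 3.31 against 4.54 in control muscle, differences that were not called (log2 -0.28 and -0.37, limma adjusted p = 0.537 and 0.379). Mef2c-207 reached 1 in 3 muscles and stayed at or below 1.51, and the 3 other listed Mef2c transcripts did not pass the filter. The share of the gene held by each member transcript was tested separately, as log2(transcript value + 1) minus log2(gene sum + 1). No member transcript was called on this scale at any day, in the mean over days or between days (limma, adjusted p from 0.485), where 1.52%, 1.83%, 0.881% and 1.24% of 4202 transcripts were called at the 4 days and 4.55% in the mean. The smallest unadjusted limma p, for Mef2c-207 at 2 days, was 0.0527. For so scarce a transcript the added 1 lowers this difference when the gene sum rises, even at an equal share. How isoforms that share most exons were divided was decided in the authors' quantification, so values of the scarce ones are uncertain.

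**Figure D3:**
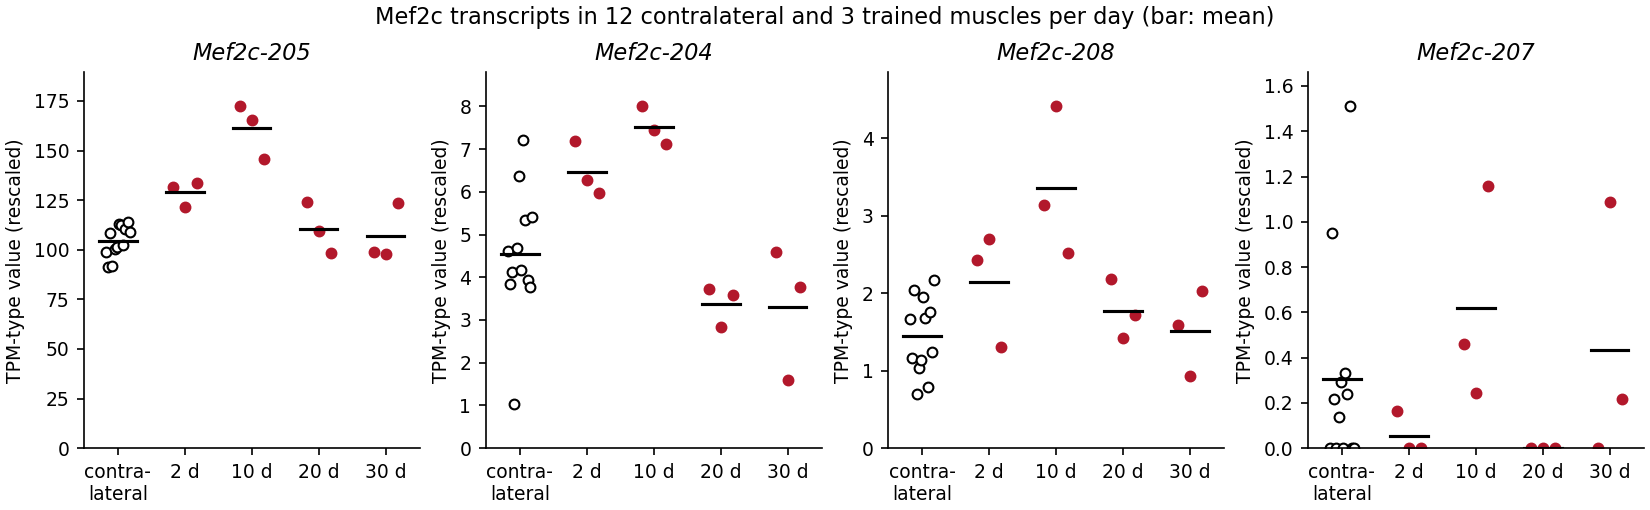
TPM-type value (y axis, from 0, a separate scale in each panel) of 4 Mef2c transcripts in the 12 contralateral muscles (open) and in the trained muscles of each day (filled); bars are means. Mef2c-205 and Mef2c-208 at 10 days lie wholly above the control muscles, and Mef2c-207 stays at or below 1.51.

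Mef2d and Mef2a, the other MEF2 genes of adult muscle, did not pass the test at any day. Mef2d ranged from 15.2 to 29.2 in control muscle, and its trained muscles were 25.6, 24.4 and 20.8 at 2 days and 17.6, 23.2 and 22.3 at 10 days. The later trained muscles held 16.9, 30.1 and 18.4 (20 days) and 24, 17.6 and 18.9 (30 days). All but trained muscle 2 of 20 days were within the control range, and at 30 days the trained muscle was the lower one in 3 of 3 animals. The log2 differences of Mef2d ran from 0.00 at 2 days to -0.22 at 30 days (95% confidence interval -0.54 to 0.10, limma adjusted p = 0.341).

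Mef2a in control muscle had a lowest value of 11.7, a median of 19.5 and a highest value of 24.2. Its trained muscles were 18.4, 12.9 and 14.2 at 2 days and 14, 13.8 and 18.9 at 10 days, then 14.4, 15.2 and 19.7 (20 days) and 19.1, 17.8 and 25.9 (30 days). The groups overlapped on every day, and 1 trained muscle, at 30 days, was above all controls. Its log2 differences were -0.30 at 2 days (95% confidence interval -0.65 to 0.04, limma adjusted p = 0.178), and -0.27, -0.19 and 0.13 on the 3 later days. The contralateral muscles of 2 days were low in Mef2a, with a mean of 15.9 against 19.1 over all controls, and with the animal as a block the differences were -0.05, -0.19, -0.35 and -0.05, with a smallest limma adjusted p of 0.11 at 20 days. Mef2a-202, on the minus strand of chromosome 1 (Rnor_6.0, 128209971 to 128341264), held 84% of the gene's value on average and Mef2a-201 the rest, and neither was called.

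With these unequal values, Mef2c took a larger part of the summed MEF2 value in the early trained muscles, which is given as a description. The sum of Mef2a, Mef2c and Mef2d was 154.2 ± 15.2 in control muscle, 176.9 ± 8.99 after 2 days and 209.9 ± 9.26 after 10 days of training (SD, n = 3 per trained group). It was 154.1 ± 10.7 on day 20 and 153.9 ± 20.1 on day 30. Mef2c made up 78.1% of it at 2 days and 82.5% at 10 days, then 75.1% and 73.2%. The share of Mef2d was 15.4% in control muscle and 10% at 10 days, and that of Mef2a 12.3% and 7.48%.

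Among the deacetylases, Hdac5, the most abundant class IIa gene here, was lower in trained muscle on average at every day without passing the test. The control muscles ran from 14.1 to 20.6 with a median of 16.5. The trained muscles were 14.4, 13.7 and 18.1 at 2 days and 16.7, 18 and 10.1 at 10 days, then 14.4, 16.7 and 12.3 (20 days) and 16.8, 13.1 and 13.7 (30 days). The groups overlapped on all 4 days, and 5 of the 12 trained muscles lay below the lowest control muscle. The trained muscle was the lower one in 2 of 3 animals at 2 days and at 10 days and in 3 of 3 at 20 and at 30 days, where 1 ratio was 0.999. The log2 differences were -0.12, -0.19, -0.20 and -0.20, and the mean over the 4 days was -0.18 (95% confidence interval -0.36 to -0.00, limma adjusted p = 0.0992), where 40.2% of genes were called. Without trained muscle 2 of 10 days the mean was -0.22 (limma adjusted p = 0.0468).

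Hdac4, the deacetylase known for its induction by denervation, was low and variable. The control muscles held between 1.33 and 4.77 with a median of 2.22. The trained muscles were 4.29, 1.75 and 2.96 at 2 days and 2.3, 2.41 and 7.59 at 10 days, then 2.55, 4.01 and 2.37 (20 days) and 2.87, 2.85 and 2.51 (30 days). The groups overlapped on every day. The highest trained and the highest contralateral value came from the same animal, number 3 of 10 days. Within animals the trained muscle was the higher one in 3 of 3 at 2 days, with ratios of 1.22 to 1.69, and in 3 of 3 at 10 days, with ratios of 1.33 to 1.72, but in 2 of 3 at 20 days and 1 of 3 at 30 days. The log2 differences from the pooled controls were 0.18 at 2 days and 0.43 at 10 days (95% confidence interval -0.13 to 1.00, limma adjusted p = 0.255), and without trained muscle 3 of 10 days the latter was -0.02. With the animal as a block the values were 0.42 and 0.45 (limma adjusted p = 0.133 and 0.113), and the mean over 4 days was 0.24 (limma adjusted p = 0.0542). These 3 values did not pass, where 21.6%, 20.1% and 43.4% of genes did.

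Hdac9, whose products include short forms without the deacetylase domain, was the lowest of the 6 genes. Its control muscles held 0.717 to 1.91 with a median of 0.926, and the 12 trained muscles 0.484 to 1.78. The groups overlapped on every day, and the log2 differences on the log2(value + 1) scale, which shrinks changes of such low values, lay between -0.15 and 0.20. Hdac9-201 carried 95.3% of the gene's value, and its other transcript did not pass the filter. Hdac7, which was not among the members, was 2.9, 3.61 and 4.06 at 10 days against 1.75 to 3.48 in control muscle, and was called there (log2 0.39, limma adjusted p = 0.038) but not with the animal as a block (limma adjusted p = 0.181).

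Transcripts of other cell types moved in the same muscles. The summed value of 5 fibroblast markers was 74.6 to 253 in control muscle, 301 to 495 at 2 days and 518 to 982 at 10 days, then 562 to 614 at 20 days and 355 to 416 at 30 days. It was thus above the control range at every day of training. The summed value of 6 macrophage markers was 6.44 to 16.3 in control muscle and 20.1 to 49.4 in trained muscle over all days. That of 4 endothelial markers was 26.1 to 39.1 in control muscle, 24.2 to 29.9 at 2 days, 33.7 to 61.8 at 10 days, 43.7 to 53.5 at 20 days and 35.7 to 47.3 at 30 days. Of these Kdr was called lower at 2 days. Vwf, Tie1 and Cdh5 were called higher at 10 days, Cdh5 and Tie1 at 20 days and Cdh5 at 30 days. The calls of 2 and 30 days were lost with the animal as a block.

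The summed value of 5 smooth muscle and pericyte markers was 66 to 111 in control muscle, 92.6 to 116 at 2 days and 83.7 to 138 at 10 days. Of these Tagln, Cnn1 and Acta2 were called higher and Rgs5 lower at 2 days, calls that were lost with the animal as a block. Acta2 was also called higher at 10 days. With the block 1 of the 5 was called higher at 10 days and 1 at 30 days. The 4 satellite cell markers summed to 3.01 to 8.54 in control muscle, 5.51 to 7.48 at 2 days and 5.67 to 8.18 at 10 days. Pax7, which defines satellite cells, was under 1 in every muscle, whereas Myf5 was called higher at 2 and 10 days (log2 0.54 and 0.40, limma adjusted p = 0.00859 and 0.0491), though not with the animal as a block (limma adjusted p = 0.088 and 0.0533). With the block 1 of the 2 satellite cell markers tested, not Myf5, was called higher at 10 days, and 1 of 2 at 30 days. Of all genes 12.1% and 7.21% were called higher with the block on these days. The 2 lymphocyte markers in the table, Cd2 and Cd79a, were under 1 in every muscle. In bulk tissue fewer cells of a type and less RNA per cell cannot be told apart, and the part of these cells in the Mef2c result was not tested.

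The targets of MEF2 were read from a list of 20 known or proposed MEF2 target genes of muscle, all of which were tested. After 2 days 9 rose and 6 fell, after 10 days 8 rose and 3 fell, after 20 days 6 rose and 1 fell and after 30 days 4 rose and 1 fell, beside 15.4%, 15.6%, 11.7% and 11.1% of all genes up and 13.5%, 13.3%, 9.64% and 9.46% down at the 4 days. The median log2 difference of the list was -0.13, 0.29, 0.01 and 0.04 at the 4 days, against -0.01, -0.03, -0.03 and -0.01 over all genes. With the animal as a block the same number rose at every day, but 5, 1, 0 and 0 fell. With the block 11.8%, 12.1%, 9.94% and 7.21% of all genes were up and 9.8%, 8%, 7.42% and 5.09% down. With the values as deposited 9, 9, 6 and 4 rose and 5, 1, 1 and 3 fell, beside 18.9%, 18.6%, 10.3% and 5.74% of all genes up and 6.49%, 6.06%, 6.62% and 23% down.

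The list did not move as one. Xirp1, which encodes an actin-binding repair protein of striated muscle, rose at all 4 days, by 4.30 at 2 days and 2.94 at 30 days on the log2 scale, and so did Klhl40, a stabiliser of thin filament proteins (3.42 and 1.53), and the activity-induced nuclear receptor Nr4a1 (2.00 and 1.47, limma adjusted p from 6e-13 to 9.58e-04 for these 6 values). A smaller group rose early and was not called later, as Mef2c was: Xirp2, a relative of Xirp1, rose by 1.36 at 2 days and 1.46 at 10 days and was at 0.27 and 0.36 afterwards, and Srpk3, a muscle-specific protein kinase, rose by 0.65 and 0.73 and was at -0.04 and -0.27. Jun, a subunit of AP-1, rose by 1.77 and 0.81 at 2 and 10 days, and Des, the intermediate filament desmin, rose at 2, 10 and 20 days. Myog and Myf6, myogenic regulators, rose at 2 days and were not called on the later days.

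Energy, sarcomere and calcium-store genes of the list also fell. Ckm, muscle creatine kinase, fell by 0.52 at 10 days and by 0.44 at 30 days on the log2 scale and was not called at 2 days. Mb, myoglobin, fell by 0.64 at 2 days and rose by 0.57 to 0.74 at the later days. Myom1, Myom2, Pgam2 and Hrc fell at 2 days, by 0.56 to 0.73, and Hrc also at 10 days. Slc2a4, the insulin-responsive glucose transporter, fell by 0.29 at 2 days and rose by 0.37 at 20 days. In the fit with the animal as a block the falls of Slc2a4 at 2 days (limma adjusted p = 0.0627), Hrc at 10 days (limma adjusted p = 0.138) and Ckm at 20 and 30 days (limma adjusted p = 0.127 and 0.0577) lost their call. With the values as deposited those of Slc2a4 at 2 days and Hrc at 10 days were lost (limma adjusted p = 0.295 and 0.0974). In RefSeq promoters, 6 of the 16 list genes with an entry held the MEF2 consensus (Aldoa, Klhl40, Myf6, Srpk3, Xirp1 and Xirp2); the list was assembled as MEF2 targets, so this share describes the list.

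**Figure D4:**
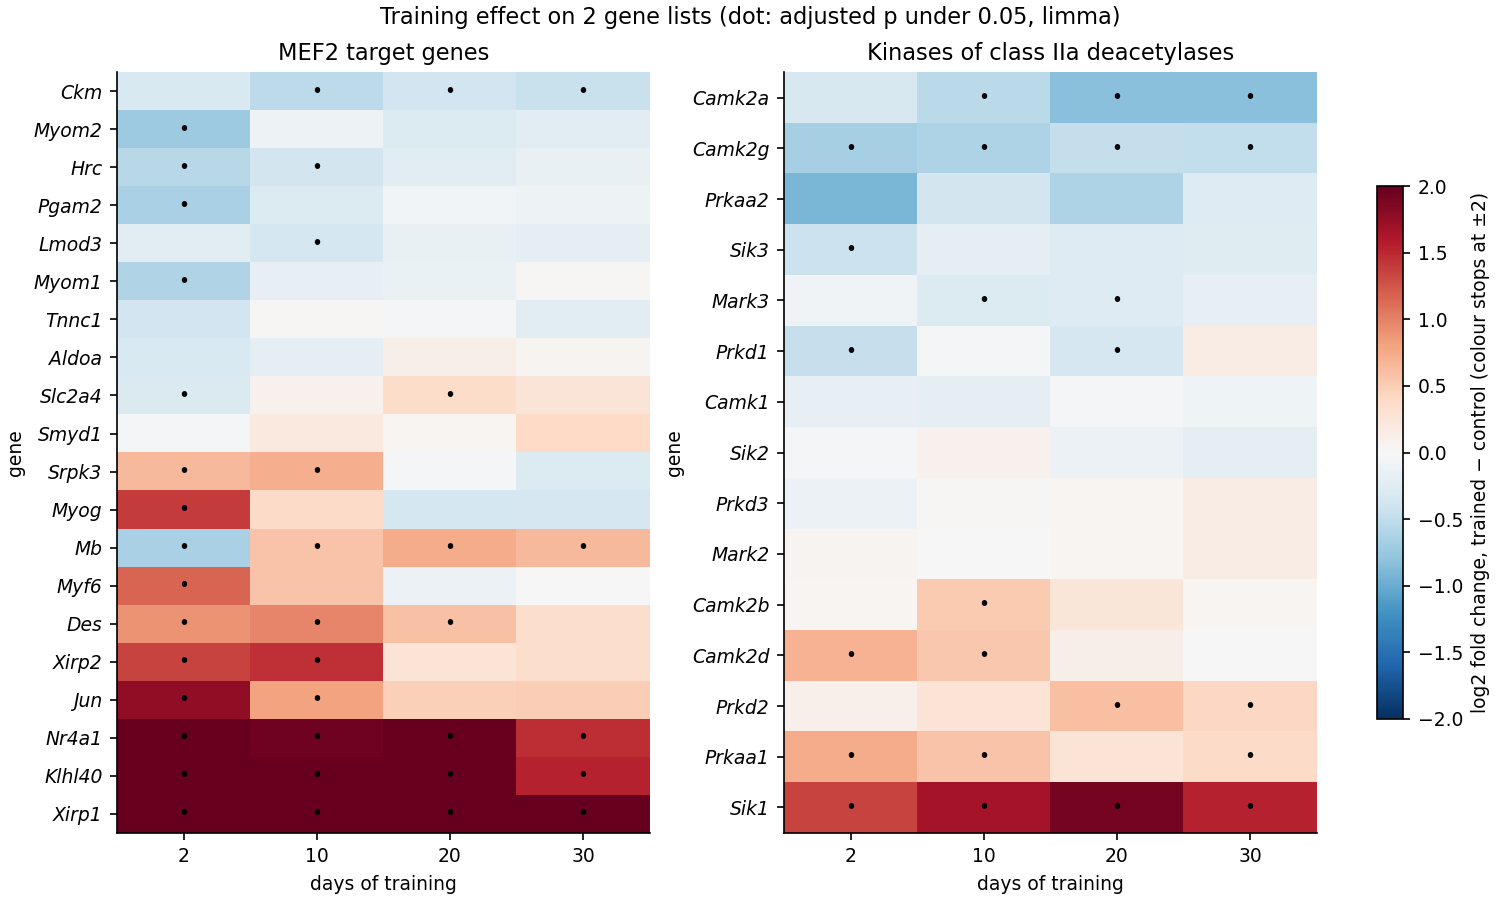
Log2 fold change of trained over control muscle (colour, which stops at 2 in either direction) for the tested genes of 2 lists (rows) at 2, 10, 20 and 30 days (columns); a dot marks a limma adjusted p under 0.05. Xirp1, Klhl40 and Nr4a1 in the left panel and Sik1 in the right panel rose on all 4 days.

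The kinases that phosphorylate class IIa deacetylases moved in both directions. Of 15 tested, 3, 4, 2 and 3 rose (20%, 26.7%, 13.3% and 20%) and 3, 3, 4 and 2 fell (20%, 20%, 26.7% and 13.3%) at the 4 days in turn, beside 15.4%, 15.6%, 11.7% and 11.1% of all genes up and 13.5%, 13.3%, 9.64% and 9.46% down. The median log2 difference of the list was -0.08, -0.01, -0.04 and 0.01. Sik1, a salt-inducible kinase, rose at all days, by 1.36 to 1.91 on the log2 scale from a control mean of 0.954. Prkaa1, a catalytic subunit of AMPK, rose at 2, 10 and 30 days (0.75, 0.58 and 0.39), Prkd2, a protein kinase D, at 20 and 30 days, and Camk2d, a calcium/calmodulin-dependent kinase, at 2 and 10 days (0.70 and 0.54). Its relatives Camk2g, lower at all days by 0.47 to 0.67, and Camk2a, lower from 10 days on by 0.54 to 0.84, fell. Mark3 fell at 10 and 20 days and Prkd1 at 2 and 20 days. When the animal was a block the calls of Prkaa1 at 30 days (limma adjusted p = 0.218), Mark3 at 10 days (limma adjusted p = 0.0655) and Prkd1 at 20 days (limma adjusted p = 0.132) were lost. The counts were then 3, 4, 2 and 2 up and 3, 3, 4 and 2 down. In either direction 21.6%, 20.1%, 17.4% and 12.3% of all genes were called. Other kinases of the list thus gained a call downward at 10 and 20 days. With the values as deposited 3, 5, 2 and 1 of the kinases rose and 2, 1, 2 and 4 fell, beside 5.74% of all genes up and 23% down at 30 days. There the calls of Prkaa1 (limma adjusted p = 0.28) and Prkd2 (limma adjusted p = 0.0607) at 30 days, Camk2a at 10 days (limma adjusted p = 0.0847), Mark3 at 10 and 20 days (limma adjusted p = 0.302 and 0.0808) and Prkd1 at 20 days (limma adjusted p = 0.0739) were lost.

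Genes for the 14-3-3 proteins and the export receptor Xpo1 were called upward or not at all: of 7 tested, 4, 5, 3 and 3 rose at the 4 days (57.1%, 71.4%, 42.9% and 42.9%, beside 15.4%, 15.6%, 11.7% and 11.1% of all genes) and none fell. The median log2 difference of the 7 was 0.34, 0.30, 0.36 and 0.27. The counts were 4, 3, 4 and 3 with the animal as a block, beside 11.8%, 12.1%, 9.94% and 7.21% of all genes up. They were 5, 4, 3 and 3 with the values as deposited, beside 18.9%, 18.6%, 10.3% and 5.74%. Ywhaz rose by 0.77 to 0.94 and Ywhaq by 0.43 to 0.62 over all days, Ywhab from 10 days on, and Ywhah at 2 and 10 days (0.79 and 0.60). At 10 days the calls of Ywhab and Ywhag were lost with the animal as a block (limma adjusted p = 0.0811 and 0.204), and that of Ywhag also with the values as deposited (limma adjusted p = 0.056). Among 12 MEF2 coactivators and activating kinases, Ppargc1a, which encodes PGC-1α, rose at all days (0.69, 1.70, 1.03 and 1.41), Vgll2 rose at 10 and 20 days and Map2k6 at 10 and 30 days, while Mapk14, the p38α kinase that phosphorylates MEF2, fell at all days by 0.45 to 0.61. For Vgll2 at 10 days and Map2k6 at both days the call was lost with the animal as a block (limma adjusted p = 0.12, 0.0901 and 0.3). In all 1, 3, 2 and 2 of the 12 rose (8.33%, 25%, 16.7% and 16.7%) and 2, 1, 1 and 1 fell (16.7%, 8.33%, 8.33% and 8.33%), beside 11.1% to 15.6% of all genes up and 9.46% to 13.5% down, with medians of -0.01, 0.00, 0.06 and -0.03. With the values as deposited 1, 3, 1 and 1 rose and 2, 1, 1 and 2 fell, and Vgll2 at 20 days and Map2k6 at 30 days lost their call (limma adjusted p = 0.0634 and 0.385).

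Of 10 other deacetylases and corepressors, Hdac1 rose at 2, 10 and 20 days (0.41, 0.46 and 0.46), Hdac2 rose at 2 and 10 days, and Ncor1 and Hdac8 fell at 2 and 10 days, Ncor1 also at 20 days. In all 2, 2, 1 and 0 rose (20%, 20%, 10% and 0%) and 2, 2, 1 and 1 fell (20%, 20%, 10% and 10%), beside 11.1% to 15.6% of all genes up and 9.46% to 13.5% down, with medians of -0.04, 0.14, 0.02 and -0.14. With the animal as a block 0 of the rises were called, and of the falls Hdac8 at 2 days and Ncor1 at 20 days were. With the values as deposited 2, 3, 1 and 0 of the 10 rose and 0, 0, 0 and 3 fell, on a scale where 18.9%, 18.6%, 10.3% and 5.74% of all genes rose and 6.49%, 6.06%, 6.62% and 23% fell. Of 5 tested genes that act downstream of Hdac4 in denervated muscle, Trim63, a ubiquitin ligase, rose at all days by 0.70 to 1.13 and Myog rose at 2 days, whereas the acetylcholine receptor genes Chrna1 and Chrne and the ubiquitin ligase gene Fbxo32 were not called on any day. The 30-day call of Trim63 was lost with the values as deposited (log2 0.48, limma adjusted p = 0.0548), and Chrne was called at 10 days with the animal as a block (log2 0.67, limma adjusted p = 0.0299).

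The genes whose log2 values ran most closely with each member over the 24 muscles, among 3837 with a mean of at least 10, are given as a description, since the muscles share animals and training state. They were Xirp2 (Pearson's r = 0.839) and Myo18b (0.832) for Mef2c, Rmnd5a (0.902) and Ubr2 (0.899) for Mef2a, and Nfic (0.893) and Ubap2l (0.814) for Mef2d. For the deacetylases they were Ksr1 (0.782) and Ttl (0.711) for Hdac4, Dolk (0.738) and Sema6c (0.737) for Hdac5 and Cep85 (0.654) and Pja2 (0.629) for Hdac9. The median r over all genes compared lay between -0.15 and 0.04.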

How the data were processed

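Poly-A RNA of 24 rat muscles was sequenced as paired-end reads. STAR alignment to Rnor_6.0 (rn6) and quantification against Ensembl transcripts were run by the authors in Partek Flow. The deposited transcript table holds TPM-type values with 1 total per sample and no read counts were used here. The authors also deposited a gene-level table of normalized signal, which lists Mef2c, Mef2d and Hdac5 among 4635 genes, and a table of their own p-values, FDR and fold ratios, which was not used. The total depth per sample, and the precision it gives, was not recovered from these values.

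Each sample was divided by a median-of-ratios factor from the 16230 transcripts above 0 in all samples. Genes and transcripts that reached 1 in 3 or more samples were fitted as log2(value + 1) with limma 3.58.1 in R 4.3.3, in 5 groups, with Benjamini-Hochberg adjustment over all 11196 genes or 13452 transcripts and a threshold of 0.05. The alternative with the animal as a block uses the left and right muscle of the same animal, as the labels give them. Deviations of such pairs correlated with a median r of 0.174 (0.0277 to 0.343, n = 12). For muscles of different animals the median r was -0.0282 (-0.771 to 0.381, n = 264), a range that holds that of the pairs. Replicates are separate animals; the series text speaks of 4 animals per time point, and 3 per day are analysed here. Further alternatives left out each muscle, changed the pseudocount, the filter and the scaling, or used the gene-level table. The fits were tested on simulated data. A further list of cell type markers is not reported here. The members were named in full, the other genes from lists by counts, giving those called at 2 or more days or with the largest change, and 2 genes per member by correlation; some named list genes were chosen after their values were seen. The members and lists were chosen with earlier results of these data known. Python 3.11.15, numpy 2.4.6, pandas 2.3.3 and matplotlib 3.10.9 prepared the tables and plots.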

Additional observations from a re-analysis of the deposited data

Results flagged for a closer look

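The level of Mef2c in trained muscle differed between days in the main fit. Its trained value was lower at 20 days than at 10 days by a log2 difference of -0.58, and lower at 30 days than at 10 days by -0.62, each by a direct limma contrast of the 2 trained groups. The main transcript, Mef2c-205, was lower at 30 days than at 10 days by -0.59 in the main fit (limma adjusted p = 0.0101). This transcript difference was not followed through the alternatives. With the animal as a block 0.0446% of transcripts were called between these days. All 3 trained muscles of 10 days were above all 3 of 20 days and all 3 of 30 days in Mef2c, as they were in 6.81% of genes for 20 days and 12.3% for 30 days. Both Mef2c differences lost their call with the animal as a block, as given above, and the one between 20 and 10 days also lost it in 17 of 24 fits that each left out 1 muscle (limma adjusted p from 0.0204 to 0.217 over the 24). With a pseudocount of 0.1 in place of 1 the difference between 20 and 10 days was -0.583 and was not called either (limma adjusted p = 0.0902).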

How the results depend on the processing

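No alternative reversed any of the 8 single-gene or single-transcript results that passed the threshold and were followed through the alternatives, over 210 alternative values. The difference of Mef2c-205 between 30 and 10 days was not among these. Mef2c ranged from 0.31 to 0.52 at 2 days and from 0.64 to 0.87 at 10 days over the settings that kept all muscles, and was called in each. With the animal as a replicate block, 0 member transcripts were called at 2 days and 0 genes differed among the trained groups, also 0 with block and deposited values together, an alternative added after seeing the data. The block left the number of member genes called at each day and in the mean over days unchanged. The Mef2c calls for 20 against 10 days and for 30 against 10 days were lost with it, as given above. The cause was not tested. Leaving out single muscles gave 0 to 1 genes and 0 to 1 transcripts at 2 days, 2 to 3 transcripts at 10 days and 1 to 2 genes in the mean over days. Members that changed direction are these, and they were not called unless this is stated. Under the block, as with time-matched controls, Mef2c was -0.024 at 20 days and -0.082 at 30 days, Mef2a -0.046 and Hdac4 -0.017 at 30 days and Hdac9 0.051 at 2 days. With values as deposited, Mef2c was -0.21, Mef2a -0.082 and Hdac4 -0.030 at 30 days, where this scaling moved the median of all genes from -0.01 to -0.18. With block and deposited values together, Mef2c was -0.11 and -0.20 at 20 and 30 days, Mef2a 0.077 and -0.16 at 2 and 30 days, Mef2d 0.062 at 10 days, Hdac4 -0.12 at 30 days, and Hdac5 0.047 and Hdac9 0.11 at 2 days. In the gene-level table as deposited, also added after seeing the data, Mef2d was 0.070 at 10 days and Hdac5 0.066 and 0.039 at 2 and 10 days. At 30 days Mef2c changed direction there to -0.43 and was called (limma adjusted p = 0.0123). Mef2d and Hdac5, already negative in the main fit at 30 days, were each -0.65 there and gained a call (limma adjusted p = 0.0111 and 0.00533). Divided by a median-of-ratios factor, the same table gave 0.06, -0.18 and -0.16 for Mef2c, Mef2d and Hdac5 at 30 days, none called (limma adjusted p = 0.701, 0.458 and 0.42). Without single muscles, uncalled values that changed sign ranged from -0.020 to 0.67 for Hdac4 at 10 days and -0.043 to 0.43 at 2 days, -0.34 to 0.047 for Hdac5 at 10 days, -0.11 to 0.23 for Hdac9 at 10 days and -0.26 to 0.0084 at 2 days, -0.024 to 0.23 for Mef2a at 30 days, -0.031 to 0.13 and -0.10 to 0.084 for Mef2c at 20 and 30 days, and -0.057 to 0.086 and -0.40 to 0.0025 for Mef2d at 2 and 20 days. Between trained groups, the difference of Mef2c between 30 and 2 days was called with values as deposited and in the gene-level table as deposited (-0.93, limma adjusted p = 1.99e-04). The total depth was not recovered, so counting error was not separated from the spread between muscles.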
